A study of Cucumis melo with 8 samples.

Results

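The miR169 family was measured in the fruit mesocarp of Hami melon (Cucumis melo, variety ‘Flavor No. 4’), a sweet melon whose mesocarp is the edible flesh. Its members were taken as every listed miRNA whose name begins with cme-miR169, and names with the same mature sequence were treated as 1 member, named here by all of its letters. The family held 10 of the 71 distinct mature sequences and 20 of the 116 miRNA names. Small RNA libraries were made at 10, 20, 30 and 40 days after flowering (DAF), where 30 and 40DAF were taken by the study as the ripening stages and 10 and 20DAF are called the early stages here. Each stage had 2 libraries, 1 in each of 2 batches. In the second batch a library came from 1 fruit and was read on the Illumina NextSeq, and in the first batch it came from 3 pooled fruits of another season and was read on the Illumina GAIIx. Season, sequencer and number of fruits therefore cannot be told apart. All fruits were of a single untreated variety, and the tissue label could not be checked against marker genes because only small RNAs were listed.

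In plants, miR169 guides the cleavage of transcripts of NF-YA genes. NF-YA is the subunit of the nuclear factor Y complex that reads the CCAAT box of promoters, and the miR169 and NF-YA pair is known from root growth, flowering and the responses to drought and nutrient shortage in Arabidopsis and other plants. A plant miRNA pairs with its target along nearly its whole length, and the bases after the first one, the seed, tolerate few mismatches.

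The mature sequences are shown first because the members differ at few bases, which bears on how their reads can be told apart. The study matched reads to known mature miRNAs with up to 1 mismatch. Each is written 5′ to 3′ with the seed, bases 2 to 8, in capitals, and they are grouped by seed. The prefix cme, for Cucumis melo, is left out below.
cme-miR169t: uGAGCCAAgaaugacuugccggc
cme-miR169k: uGAGCCAAggaugacuugccu
cme-miR169p/q/s: uGAGCCAAagaugacuugccu
cme-miR169i/j/l/m: uAGCCAAAaaugacuugccugc
cme-miR169a/b: uAGCCAAAaaugacuugccug
cme-miR169c/d/o: uAGCCAAAgaugacuugccug
cme-miR169g: aAGCCAAGgaugaauugccgg
cme-miR169f/h: cAGCCAAGgaugacuugccgg
cme-miR169e/n: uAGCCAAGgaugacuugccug
cme-miR169r: gAGCCAAGaaugacuugccgg

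The 10 sequences fell into 3 seed groups. GAGCCAA was the seed of miR169t, miR169k and miR169p/q/s, AGCCAAA that of miR169i/j/l/m, miR169a/b and miR169c/d/o, and AGCCAAG that of the other 4 members. All 10 held the stretch AGCCAANNAUGANUUGCCN, in which 15 of 19 bases were the same in every member. The seed GAGCCAA is this stretch begun 1 base later in the miRNA, so the 3 seeds were partly a matter of register. Base 13 of the stretch was A in miR169g and C in the other members. The sequences of f/h, g, r and t went on with GG after the stretch UUGCC, and those of the other 6 members with U. miR169a/b was contained whole in miR169i/j/l/m, and miR169r in miR169t.

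Over the bases that 2 members shared in register, 4 of the 45 pairs had no difference and 13 had 1 difference, and the most distant pairs differed at 4 bases. With positions counted from 1 at the 5′ end, miR169k and miR169p/q/s differed by G9A, miR169a/b and miR169c/d/o by A9G, and miR169c/d/o and miR169e/n by A8G. A read of 1 of these sequences is therefore within the mismatch allowance of the other, and how such reads were divided was not tested. Lengths were 21 nt for 8 members, 22 nt for miR169i/j/l/m and 23 nt for miR169t.

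The precursors, the hairpin RNAs from which the mature strand is cut, are listed by the study for all 20 names. The most abundant member, miR169t, is found in its own hairpin and in that of miR169r, and miR169k in another hairpin. These 3 precursors are shown with the mature strand in capitals.
MIR169t: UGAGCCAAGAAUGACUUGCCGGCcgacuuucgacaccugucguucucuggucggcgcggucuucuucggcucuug
MIR169r: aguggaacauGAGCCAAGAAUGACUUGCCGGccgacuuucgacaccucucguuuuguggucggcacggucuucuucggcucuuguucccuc
MIR169k: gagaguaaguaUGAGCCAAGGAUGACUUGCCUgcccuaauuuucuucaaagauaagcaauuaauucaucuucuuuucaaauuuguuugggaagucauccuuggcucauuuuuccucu

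The whole of miR169t also lay in MIR169r, at bases 10 to 32, so a miR169t read can be placed on both hairpins. miR169k lay in its own precursor alone. Precursors ranged from 75 nt for MIR169t to 365 nt for MIR169a and MIR169b. In 19 of the 20 precursors the first copy of the mature strand lay nearer the 5′ end, and in MIR169l it lay nearer the 3′ end. MIR169a and MIR169b held miR169a/b again at bases 255 to 275, nearer the 3′ end. The arm was not read from the folded structure. Minimum folding energies computed with RNAfold were -38.2 kcal/mol for MIR169t, -46.6 kcal/mol for MIR169r and -43.5 kcal/mol for MIR169k.

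**Figure D1:**
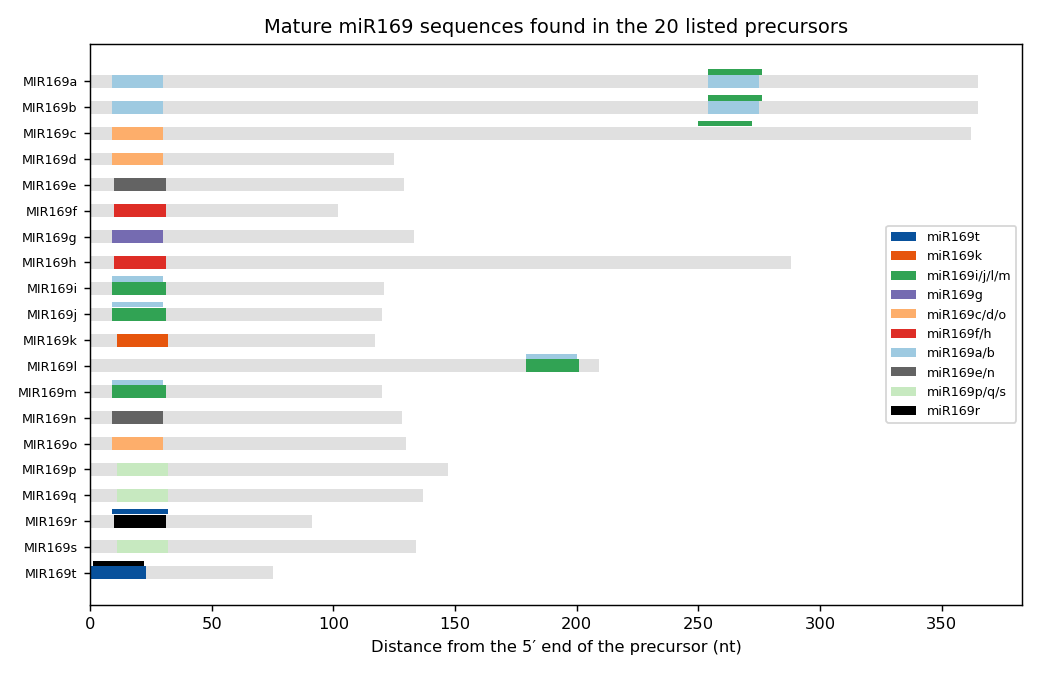
Each grey bar is 1 of the 20 precursors, drawn to scale from its 5′ end in nt, and coloured blocks mark exact matches of the mature sequences, with the precursor's own member at full height and other members as thin blocks above it. MIR169a, MIR169b and MIR169c carry the sequence of miR169i/j/l/m in their 3′ parts, and miR169t and miR169r appear in each other's precursors.

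MIR169a ended with all 120 nt of MIR169m, MIR169b with all 120 nt of MIR169j and MIR169c with all 121 nt of MIR169i. The miR169i/j/l/m sequence was thereby found in 7 precursors, 4 of its own and 3 others, and miR169a/b in 7, of which 2 were its own. The last 37 nt of MIR169q and of MIR169s were the first 37 nt of MIR169l. In the RefSeq gene table of melon, which uses another genome assembly than the study, 11 of the 20 names were matched, each with the same precursor length. In that table MIR169D, MIR169M, MIR169J, MIR169S and MIR169Q followed each other with 0 other genes between neighbours, and so did MIR169R and MIR169K.

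Values are in TPM, which here are the reads of a sequence over a library total, scaled to a common total and not divided by length. The low values of each library were whole multiples of the value of 1 read. For the second batch this implies TPM totals of 604454, 985322, 105077 and 134913 reads at 10, 20, 30 and 40DAF. For the first batch it implies 314792, 360144, 410953 and 233131 reads. These totals are well below the clean reads that the study reports for each library. Which reads they count is not given, so they are not sequencing depths. The floor used here, 3 reads, was 4.96, 3.04, 28.6 and 22.2 TPM in the second batch and 9.53, 8.33, 7.30 and 12.9 TPM in the first. A value of 0 therefore allows a level up to that floor, which was highest in the second-batch ripening libraries. The TPM of all distinct sequences summed to 412477 to 506067 in the second batch and to 571433 to 883434 in the first. Intervals on reads cover counting error only, since PCR copies were not told apart. The 2 libraries of a stage are also the 2 batches, so in the model without a block each p measures a spread between libraries that includes the difference between batches. The labels do not say whether replicates are separate plants. Per the study's methods, each fruit of a stage came from a different plant, and the 2 batches were grown in different seasons.

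In TPM as deposited, the family was more abundant in the ripening fruits than in the early fruits of both batches. Its summed level was 248, 139, 989.8 and 534 TPM at 10, 20, 30 and 40DAF in the second batch, from 150, 137, 104 and 72 reads. In the first batch it was 356, 322, 652 and 957 TPM, from 112, 116, 268 and 223 reads. In TPM all 4 ripening libraries lay above all 4 early ones. In the second batch the ripening libraries held fewer family reads than the early ones, so their higher TPM rests on their smaller totals. On the clean reads that the study reports, the direction would not hold for every library. For the second batch the study lists more clean reads at 40DAF than at 10DAF, with 72 against 150 family reads. That 40DAF library would therefore lie below the 10DAF one. The first-batch 40DAF library has fewer clean reads and more family reads than either early library, so it would stay above both. Ratios on that scale were not computed.

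The total averaged 783 ± 225 TPM in the ripening libraries and 266 ± 96.0 TPM in the early libraries (SD, n = 4 each), a ratio of 2.94. Within batches the ratio was 3.93 in the second and 2.37 in the first. As a sum over chosen members it has no test. By stage, the order was 30DAF with 821 ± 239 TPM, 40DAF with 745 ± 299 TPM, 10DAF with 302 ± 76.1 TPM and 20DAF with 231 ± 129 TPM (SD, n = 2 each). The first 2 of these differed by less than their SD, and so did the last 2. In a whole tissue, more family RNA per cell and more cells that carry it cannot be told apart.

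**Figure D2:**
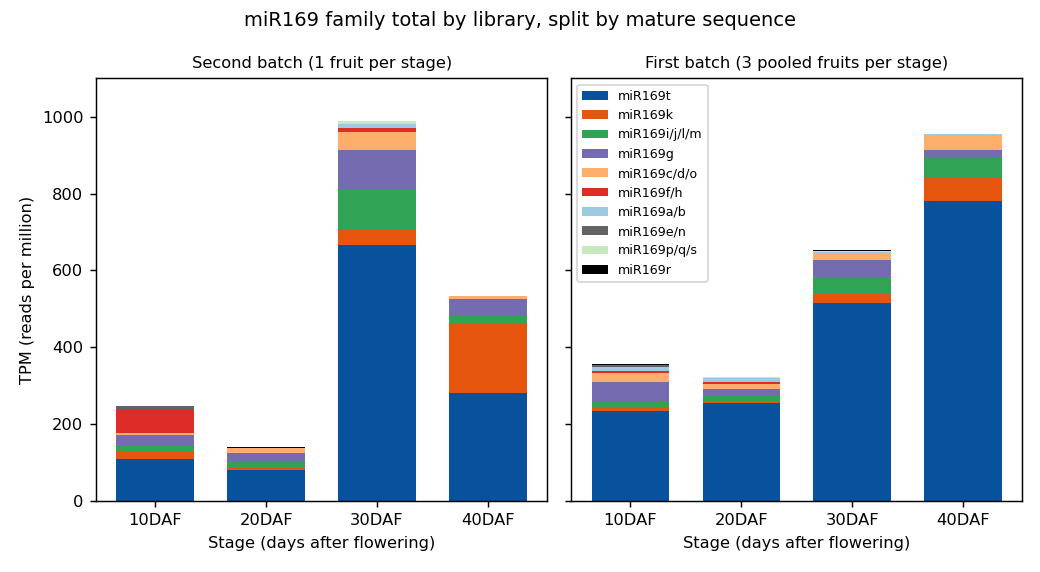
Stacked bars give the TPM of each miR169 sequence by stage, with the second batch on the left and the first batch on the right. miR169t fills most of 7 bars, and the bars of 30 and 40DAF are taller than those of 10 and 20DAF in both batches.

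The family was a small part of the miRNAs counted. It made up 0.121 ± 0.0520% of the summed TPM of distinct sequences in ripening libraries and 0.0517 ± 0.0122% in early libraries (SD, n = 4 each). This percentage rests on another total than the TPM, and its ratio was 2.35, with 3.37 in the second batch and 1.57 in the first. Among 29 families ranked by summed TPM, miR169 stood at places 9, 12, 6 and 10 from 10 to 40DAF in the second batch and at 12, 13, 6 and 5 in the first.

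The size of the family's difference depended on the scaling. With each library scaled to the sum of all families but miR159, miR319 and miR396, the ratio of ripening over early was 1.23 in the second batch and 1.46 in the first. With scaling by the median ratio it was 1.89 in the second batch and 2.87 in the first.

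miR169t was the main member at every stage. It had 108, 79.2, 666 and 282 TPM at 10, 20, 30 and 40DAF in the second batch, from 65, 78, 70 and 38 reads. In the first batch it had 235, 255, 516 and 781 TPM, from 74, 92, 212 and 182 reads. Every ripening library was above every early library, and the highest second-batch library was that of 30DAF while the highest first-batch library was that of 40DAF.

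The mean of miR169t was 561 ± 216 TPM in ripening libraries and 169 ± 88.9 TPM in early libraries (SD, n = 4 each), with a ratio of 5.08 within the second batch and 2.64 within the first. The gap between the groups was narrow where batches were mixed. The second-batch library at 40DAF had 282 TPM (95% Poisson interval 199 to 387), and the first-batch library at 20DAF had 255 TPM (206 to 313). These intervals overlapped.

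miR169k was a minor member except in 1 library. It had 21.5, 6.09, 38.1 and 178 TPM at 10, 20, 30 and 40DAF in the second batch, from 13, 6, 4 and 24 reads. In the first batch it had 9.53, 2.78, 21.9 and 60.05 TPM, from 3, 1, 9 and 14 reads. In each batch its order was 40DAF, 30DAF, 10DAF and 20DAF.

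The 2 groups of miR169k barely failed to overlap, with 21.9 TPM in the lowest ripening library and 21.5 TPM in the highest early library. Its mean was 74.5 ± 70.7 TPM in ripening and 9.98 ± 8.17 TPM in early libraries (SD, n = 4 each), and the ratio was 7.82 in the second batch and 6.66 in the first.

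miR169i/j/l/m, a single sequence with 4 names, had 13.2, 17.2 and 105 TPM at 10, 20 and 30DAF in the second batch and 22.2 TPM at 40DAF, from 8, 17, 11 and 3 reads. In the first batch it had 15.9, 13.9, 43.8 and 55.8 TPM, from 5, 5, 18 and 13 reads. The early libraries were close together, at 15.1 ± 1.84 TPM, and the ripening libraries were spread, at 56.6 ± 34.9 TPM (SD, n = 4 each). The lowest ripening library stood at the floor of 3 reads.

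miR169g and miR169c/d/o did not separate the groups. miR169g had 29.8, 22.3, 105 and 44.5 TPM in the second batch and 47.65, 19.4, 46.2 and 17.2 TPM in the first. miR169c/d/o had 4.96, 12.2, 47.6 and 7.41 TPM in the second batch and 25.4, 13.9, 17.0 and 38.6 TPM in the first. For both sequences the highest value was that of the second-batch library at 30DAF, which rested on 11 and 5 reads.

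The ratio of ripening to early means of miR169g was 2.86 in the second batch and 0.945 in the first, so its direction was not the same in both. miR169c/d/o had ratios of 3.21 in the second batch and 1.42 in the first.

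**Figure D3:**
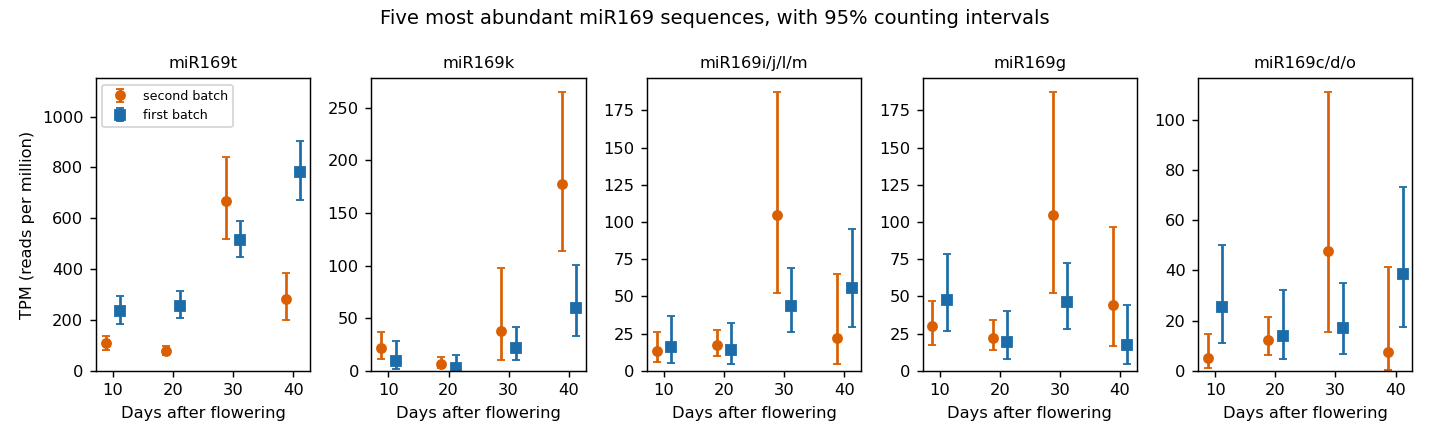
TPM of the 5 sequences with a read in every library, by days after flowering, each on its own axis from 0, with the second batch as circles on the left and the first batch as squares. Bars are 95% Poisson intervals on the reads. The widest is that of the second-batch library at 30DAF, or at 40DAF for miR169k. miR169t is the sequence whose intervals are narrow against its differences.

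The other 5 members were near the detection limit, with 39 reads in all for miR169f/h, 11 for miR169a/b, 7 for miR169e/n, 5 for miR169p/q/s and 3 for miR169r over the 8 libraries. miR169f/h had 59.6 TPM, 36 reads, in the second-batch library at 10DAF. Elsewhere it had at most 1 read per library. In the second batch its value at 10DAF was 19.6-fold the floor of 3 reads at 20DAF and 2.68-fold that at 40DAF. It had 0 reads at 20 and 40DAF. These folds leave out the counting error at 10DAF, so they are no lower bounds. The Poisson interval at 10DAF, 41.7 to 82.5 TPM, lay above those at 20DAF (0 to 3.74 TPM) and 40DAF (0 to 27.3 TPM). In the first batch miR169f/h had 3.18 TPM at 10DAF, 2.78 TPM at 20DAF and 0 at both ripening stages, all under the floor.

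miR169a/b had 4 reads in each early library of the first batch, 12.7 TPM at 10DAF and 11.1 TPM at 20DAF, and 1 read in each ripening library of that batch. In the second batch it had 1 read, at 30DAF. miR169e/n was seen at 10DAF alone, with 9.93 TPM from 6 reads in the second batch and 3.18 TPM from 1 read in the first. In the second batch its value at 10DAF was 3.26-fold the floor of 3 reads at 20DAF, where it had 0 reads. The Poisson intervals, 3.64 to 21.6 TPM at 10DAF and 0 to 3.74 TPM at 20DAF, overlapped, so no minimum fold is given. The floors of the 2 ripening libraries were also too high to give a bound. miR169p/q/s and miR169r never had more than 1 read in a library.

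Ripening was compared with the early stages in a limma model of the 4 stages on log2(TPM + 5), with p adjusted by Benjamini-Hochberg over the 71 sequences. No member passed an adjusted p of 0.05 in this model, against 4 of 71 sequences in all (5.63%). At an unadjusted p under 0.05 joined with a fold of over 1.5, 3 of 10 members were higher and 0 were lower in ripening fruits, against 16.9% higher and 8.45% lower over all sequences. These 3 were miR169k, miR169t and miR169i/j/l/m, the same members whose groups did not overlap. Among all sequences 12.7% had all ripening libraries above all early ones and 4.23% all below, and 0 members were in the second set. The median log2 fold change was 0.39 over the members and 0.08 over all sequences.

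miR169k had the largest fitted change of the family, a log2 fold change of 2.17 (SE 0.61, limma unadjusted p = 0.0101, adjusted p = 0.0899). It was the only member whose adjusted call changed when the batch was added as a block, with an adjusted p of 0.0339 from limma, beside 6 called sequences in all (8.45%). At the unadjusted threshold the block called the same 3 members, against 25.4% of all sequences with and without it. miR169t had a log2 fold change of 1.76 (SE 0.57, limma unadjusted p = 0.0193, adjusted p = 0.125), and with the block an adjusted p of 0.0790. miR169i/j/l/m had 1.45 (SE 0.58, limma unadjusted p = 0.0425, adjusted p = 0.178). Without 1 of 5 libraries, those of 30 or 40DAF in the first batch or of 10, 20 or 30DAF in the second, the unadjusted p of miR169t was 0.0504 to 0.0795, and that of miR169i/j/l/m stayed under 0.05 only without the first-batch 30DAF or the second-batch 40DAF library.

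The remaining members had log2 fold changes of 0.67 for miR169c/d/o, 0.58 for miR169g, 0.20 for miR169p/q/s, -0.10 for miR169r, -0.13 for miR169a/b, -0.57 for miR169e/n and -0.88 for miR169f/h, with limma adjusted p of 0.185 or above. miR169e/n had an unadjusted p of 0.0496 with a fold change under 1.5. The fitted values of sequences at or near 0 depend on the 5 TPM added and are no bounds.

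**Figure D4:**
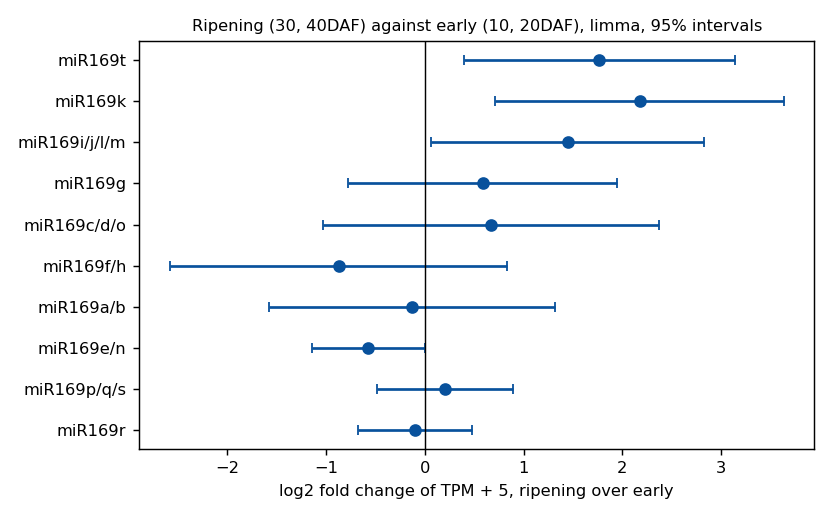
Points are limma log2 fold changes of TPM + 5 in ripening over early libraries for the 10 sequences, with 95% intervals as bars and a line at 0. The intervals of miR169t, miR169k and miR169i/j/l/m lie above 0 and that of miR169e/n just below it, and the other 6 cross 0, none of them adjusted for the 71 tests.

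The scaling of the libraries moved the changes by unequal amounts, less for sequences near 0, where the 5 TPM added holds the value in place. The median log2 fold change of all 71 was 0.08 as deposited, -0.57 when scaled on the other families and -0.12 when scaled by the median ratio. Relative to that median, miR169k was higher by 2.09 as deposited, by 1.78 on the other families and by 1.95 by the median ratio. miR169t was higher by 1.68, 1.14 and 1.50, and miR169i/j/l/m by 1.37, 1.02 and 1.23, in the same order of scalings. All 3 kept their direction under these scalings, none of which used clean reads. The direction of miR169c/d/o, miR169g and miR169p/q/s turned on the other families. Their log2 fold changes there were -0.19, -0.48 and -0.07 before the median is taken off. Relative to the median, values of members near 0 move with the median itself and are not read here. On the other families the unadjusted limma p was 0.1001 for miR169k, 0.288 for miR169t and 0.494 for miR169i/j/l/m, so none of the 3 calls held there, and by the median ratio that of miR169i/j/l/m was 0.131.

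For comparison, 34 sequences belonged to 10 other families whose known targets are transcription factors, such as miR156 with SPL and miR172 with AP2 genes. Of these, 8 were higher and 5 lower in ripening fruits with an unadjusted p under 0.05 and a fold over 1.5, and 4 passed the adjusted p, 3 of them higher. The median log2 fold change of this list was -0.02.

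Pairs of stages were compared in the same model at an unadjusted p under 0.05 and a fold over 1.5, the form of threshold used in the study. The members gave 7 calls over the 6 pairs, 4 of them for sequences with at most 6 reads in a library. At 20DAF against 10DAF, 1 of 10 members was called, miR169e/n, against 7.04% of all sequences. The same member was the call at 30DAF against 10DAF, against 14.1% of all sequences. At 40DAF against 10DAF, miR169e/n was lower and miR169k higher, 2 of 10 members against 22.5%.

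At 30DAF against 20DAF the call was miR169t (5.63% of all sequences), at 40DAF against 20DAF it was miR169k (14.1%), and at 40DAF against 30DAF it was miR169p/q/s (9.86%), which had at most 1 read per library. miR169k was higher at 40DAF than at 20DAF by 3.55 on the log2 scale (SE 0.86, limma unadjusted p = 0.00508, adjusted p = 0.120) and higher at 40DAF than at 10DAF by 2.47 (SE 0.86, limma unadjusted p = 0.0256, adjusted p = 0.165). miR169t was higher at 30DAF than at 20DAF by 1.998 (SE 0.81, limma unadjusted p = 0.0453, adjusted p = 0.639). miR169e/n had the same fitted log2 difference of -1.14 at each later stage against 10DAF (SE 0.34, unadjusted p = 0.0127 from limma), since every later library was at 0.

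On adjusted p, 0 members were called in any pair, and the shares of all sequences were 2.82% at 30DAF against 10DAF, 7.04% at 40DAF against 10DAF and 0% in the other 4 pairs. With the batch as a block the members gave 11 calls at the unadjusted threshold, and 1 at an adjusted p under 0.05, miR169k at 40DAF against 20DAF (limma adjusted p = 0.0328), where 4.23% of all sequences were called. The block added miR169t and miR169i/j/l/m at 30DAF against 10DAF, miR169k at 30DAF against 20DAF, miR169t at 40DAF against 20DAF and miR169k at 40DAF against 30DAF. It dropped miR169p/q/s. With the block, 5.63% of all sequences were called at 20DAF against 10DAF, 16.9% at 30DAF against 10DAF, 22.5% at 40DAF against 10DAF, 7.04% at 30DAF against 20DAF, 14.1% at 40DAF against 20DAF and 9.86% at 40DAF against 30DAF.

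The batches were compared with the stage held in the model. No member passed the test of the second against the first batch, with 0 of 10 at an adjusted p under 0.05 and 0 at an unadjusted p under 0.05, against 2.82% of all sequences on adjusted p and 18.3% on unadjusted p and a fold over 1.5. The log2 difference, second minus first batch, was -0.95 for miR169t (SE 0.46, limma adjusted p = 0.340) and 0.89 for miR169k (SE 0.45, limma adjusted p = 0.348). The interval of the difference ran from -2.09 to 0.18 for miR169t and from -0.21 to 1.98 for miR169k. The unadjusted limma p passed 0.05 in some alternatives. For miR169k it was 0.0296 with scaling by the median ratio (difference 1.23) and 0.0454 without the mean-variance trend. For miR169t it was 0.0145 without the first-batch and 0.0146 without the second-batch library of 30DAF (difference -1.39 in both). The adjusted p of these fits was 0.140 or above.

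The 2 batches were also compared in their ripening change, as an interaction of batch with ripening. No member passed on adjusted or unadjusted p, against 2.82% of all sequences on adjusted p and 19.7% on unadjusted p and a fold over 1.5. The interaction was shifted over the whole set, with a median of 1.11 and 56 of 71 sequences positive. All 14 unadjusted calls were higher and 0 were lower. The median over the members was 0.43. The largest member difference was that of miR169a/b, 1.79 (SE 0.81, limma unadjusted p = 0.0556, adjusted p = 0.247). Its unadjusted p was 0.0399 with a pseudocount of 20 TPM, 0.0272 on the other families and 0.00390 with voom on recovered reads, with adjusted p of 0.0567 or above, and without the second-batch 40DAF library its adjusted p was 0.0243. This member had 11 reads in all. The differences of miR169t and miR169k were 0.82 (95% interval -1.01 to 2.65) and 0.40 (-2.67 to 3.46).

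The makeup of the family was compared as shares of its reads, which do not depend on the scaling of the libraries. miR169t held 43.3, 56.9, 67.3 and 52.8% of family reads at 10, 20, 30 and 40DAF in the second batch. In the first batch it held 66.1, 79.3, 79.1 and 81.6%. The 95% Clopper-Pearson interval, for counting error only, was 35.3 to 51.7% for the lowest of these shares and 75.9 to 86.5% for the highest.

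At each stage the share of miR169t was lower in the second batch than in the first. Over stages it averaged 70.2 ± 13.2% in ripening and 61.4 ± 15.2% in early libraries (SD, n = 4 each). This difference was smaller than the spread, which includes the gap between batches. Within batches the ripening and early means were 60.0% and 50.1% in the second and 80.4% and 72.7% in the first. In both batches the ripening and early libraries overlapped. The TPM of the other 9 members together averaged 222 ± 83.1 in ripening and 97.0 ± 39.9 in early libraries, a ratio of 2.29, with 2.87 in the second batch and 1.67 in the first.

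2 second-batch libraries held large shares of a member that was minor elsewhere. At 40DAF miR169k held 33.3% of the family reads, against 0.862 to 8.67% in the other 7 libraries. At 10DAF the seed group AGCCAAG held 40.0%, most of it miR169f/h, against 1.79 to 16.8% in the others.

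By seed, the group GAGCCAA of miR169t, miR169k and miR169p/q/s held 82.2 ± 7.07% of family reads in ripening and 66.1 ± 11.9% in early libraries (SD, n = 4 each). The means were 79.1% and 57.4% for ripening and early fruits of the second batch, and 85.4% and 74.9% for those of the first. The group AGCCAAG averaged 7.28 ± 4.06% in ripening and 19.9 ± 14.1% in early libraries, and AGCCAAA 10.5 ± 4.45% in ripening and 13.9 ± 5.80% in early libraries. These shares are given without a test.

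Members did not all follow the same course over the 8 libraries. On log2(TPM + 5), Pearson's r with miR169t was 0.822 for miR169i/j/l/m, 0.744 for miR169c/d/o, 0.454 for miR169k and 0.339 for miR169g. miR169k and miR169c/d/o had r = 0.0313. Outside the family, among 47 sequences with a mean of at least 10 TPM, the courses most like that of miR169t were those of miR156a/c/d/i (r = 0.864), miR156j (r = 0.824) and miR164a (r = 0.773). These values are a description over 8 libraries that share their stage, batch and total.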

How the data were processed

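Small RNA of 8 mesocarp libraries was measured. Per the study's methods, reads were trimmed of adapters, cleaned of low-quality reads and of matches to rRNA and tRNA, and aligned with Bowtie (named in the methods and in the submitters' processing notes, Bowtie2 in the study's results, version not given in the sources used here) to known mature plant miRNAs, where up to 1 mismatch was allowed. The authors deposited TPM, which are read counts (RPM) over a library total that do not take account of length. Each of several names for a sequence carries its full value, so each sequence was used once. 1 line with an extra empty field was read without that field. The suffixes 1 and 2 of the library names were read as the first and second batch. Sequences and precursors came from the supplementary tables of the study, and names of neighbouring genes from RefSeq.

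The limma package (3.58.1, R 4.3.3) was run on log2(TPM + 5) without a filter, with stage as 4 levels and a trend of variance with mean, adjusting p by Benjamini-Hochberg over 71 sequences. Reads were recovered from the TPM of 1 read, and every low value, 34 to 45 per library, was whole within 0.1 reads. Batch numbers paired the libraries, since deviations from stage means correlated within a batch for all 6 pairs of stages (0.352 to 0.664), and the blocked fit is given where it changed a call. On simulated data for ripening against early stages, 71.9% of 14 sequences changed by a log2 of 3 were recovered among 71, with 0.58 false calls per run over 50 runs. The simulation had independent noise and no batch effect. Its planted change was larger than the largest ripening change of a member, 2.17, so these rates do not describe the test as used here. Precursors were folded with RNAfold 2.7.2. Python 3.11.15, numpy 2.4.6, pandas 2.3.3 and scipy 1.17.1 were used for the rest. All members were described, with the 3 sequences outside the family most correlated with miR169t. Members, lists and tests were chosen with earlier results of these data known. As alternatives, the pseudocount was 1 or 20 TPM, sequences with a mean under 10 TPM were dropped, and fits were repeated with both other scalings, the block, no trend, the compared stages alone, each library left out, and voom on recovered reads, which was added after the data were seen. Target predictions were not analysed here.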

Additional observations from a re-analysis of the deposited data

Results flagged for a closer look

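In 3 of 23 groups of 4 libraries a single library lay far from the other 3. Chance gives about 1 in 20 for measured values, a rate that does not hold where a single read stands among zeros, since such a group always stands out. miR169f/h had 59.56 TPM, 36 reads, in the second-batch library at 10DAF, against 0, 2.78 and 3.18 TPM in the other early libraries. The same sequence had 9.52 TPM in the second-batch library at 30DAF and 0 in the other ripening libraries, and miR169r had 2.43 TPM in the first-batch library at 30DAF and 0 in the other ripening libraries. Both of these values are 1 read against none in the other 3 libraries, so they were singled out by construction.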

How the results depend on the processing

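Calls of members were few and moved with the fit. Ripening against early stages gave 0 calls on adjusted p and 1 with the replicate block (miR169k), and leaving out each library gave 0 to 1, where the call was miR169e/n without either 10DAF library. These fits have 1 library at 10DAF, assumed to vary like the other stages, and 0 in every other library, so no spread is left for this sequence (SE 0.035 and 0.030) and the calls say nothing about stability. The 7 calls over pairs of stages became 3 with a pseudocount of 20 TPM, 11 with the replicate block, 11 without the mean-variance trend and 4 with voom on recovered reads, which was chosen after seeing the data. The 0 adjusted calls over pairs became 1 with the paired fit and 1 without the trend, both miR169k at 40DAF against 20DAF, and leaving out each library gave 0 to 3, with 3 calls of miR169e/n without either 10DAF library that have the same fault. The 0 calls of the interaction became 0 to 1 with each library left out, also added after seeing the data.

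The log2 ratio of the family total, 1.98 in the second batch and 1.25 in the first, was 0.30 and 0.55 when scaled on the other families, and 0.92 in the second batch by the median ratio. It was 1.46 to 2.45 in the second batch and 0.94 to 1.50 in the first when a library of that batch was left out.

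Signs of small changes between ripening and early stages were unstable. miR169a/b, -0.13 on the log2 scale, was 0.050 with a pseudocount of 1 TPM, 0.67 with voom and -0.58 to 0.33 with each library left out. On the other families miR169c/d/o was -0.19, miR169g -0.48 and miR169p/q/s -0.070. With voom miR169e/n was 0.11 and miR169r 0.93. With each library left out miR169p/q/s was -0.043 to 0.44 and miR169r -0.28 to 0.076. The cause was not tested. miR169t, miR169k and miR169i/j/l/m kept their direction in all 16 alternatives. None of these scaled the libraries on clean reads, so direction on that scale was not tested. From 10 to 40DAF in the second batch, miR169t went from 65 to 38 reads and miR169i/j/l/m from 8 to 3. miR169k went from 13 to 24 reads. The 40DAF library has more clean reads than the 10DAF one. On clean reads, miR169t and miR169i/j/l/m would therefore lie lower at 40DAF than at 10DAF in that batch.

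The edgeR test on recovered reads was not run, since 34 to 45 low values per library were taken as too few for a count model. That limit applies to voom and to the read counts given here too. The implied totals limit members under 3 reads, which in the second-batch ripening libraries means under 22.2 to 28.6 TPM.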
